A study of Xenopus laevis with 24 samples.

Results

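The genes described here were picked to rise late in cultured foregut of Xenopus laevis, between stages NF33 and NF38. They were chosen by their values in the deposited table of TPM (a level scaled for transcript length and library total), through a rule on the log2 of the mean TPM of 3 libraries plus 1. A gene had to move by less than 1 in size from NF25 to NF33 in controls and to rise by at least 1 from NF33 to NF38. It also had to stand less than 0.6 above controls in rfx6 morphants at NF25, less than 0.8 above controls under BMS493 at NF33 and less than 0.8 below controls under BMS493 at NF25. Of 44478 genes listed, 1215 rose by at least 1 from NF33 to NF38, 672 of these met the condition on NF25 to NF33, and 466 met every condition. The 200 with the largest rise form the set. The last gene inside that limit and the first outside both rose by 1.48.

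The tissue was foregut endoderm with its surrounding mesoderm, cut from wild-type embryos (genotype label wt, NXR_0031) at stage NF15 and cultured at 15 °C. It was harvested at NF25, NF33 or NF38, with 8 explants pooled per library and 3 libraries per group. Controls at all 3 stages carried 2.5 ng of a mismatch morpholino, an antisense oligonucleotide with 5 altered bases, injected at the 2-cell stage. They were kept in 0.1% DMSO. The rfx6 morphants, also at all 3 stages, had received 2.5 ng of a translation-blocking morpholino at the 2-cell stage. BMS493, a compound that holds retinoic acid receptors in their repressing state, was given at 250 nM to explants taken at NF25 and NF33, while NF38 has no BMS493 libraries among those analysed here. The labels do not say whether BMS493 explants carried the mismatch oligonucleotide or whether morphants were kept in DMSO. A morpholino acts in the whole embryo from its injection, so effects in endoderm and mesoderm cannot be told apart; a block of translation can leave rfx6 RNA at its usual level, and that RNA was not looked up. The labels call the 3 pools of a group biological replicates without naming parents, and p-values measure the spread between such pools.

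Rfx6 is a transcription factor of the RFX family that is known from mouse and human for its part in forming the endocrine cells of pancreas and gut. Retinoic acid is made from vitamin A and acts through nuclear receptors that bind DNA, and in vertebrate embryos it helps to set up pancreas, lung and the regions of the gut tube. In the frog the gut tube is patterned into organ domains first, and the liver, pancreas, stomach and intestine turn on many of their specialised genes later, as the tadpole approaches feeding.

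The files give genes as numbered identifiers without symbols, and 0 of the 44478 identifiers matched a RefSeq table of 44456 genes. No gene is named, marker lists for the tissue were not run, and no sequence is shown. Library totals ran from 19433955 to 31005048 counts, and log2 values of 2 libraries in a group correlated across genes with r of 0.986 to 0.991. The batch label repeats the stage of harvest, so a difference between stages cannot be told apart from batch, while morphants and controls of a stage share 1 batch label. The laevis genome holds near-identical gene copies that may share reads, so a value for a single identifier carries that uncertainty.

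Not every member rose in counts as well as in TPM. In 172 of the 200 genes, library-scaled control counts (CPM) at NF38 were at least 2 times those at NF33, with at least 10 counts over the 3 control NF38 libraries. The other 28 (14%) did not meet this. Of these, 12 had between 0 and 2 counts over the 3 control NF38 libraries beside a mean of 1.98 to 6.79 TPM. In the remaining 16, the CPM ratio of NF38 to NF33 lay between 0.918 and 1.92 while the TPM ratio lay between 3.24 and 31.1. Their TPM also varied more between libraries: the coefficient of variation among the control NF38 libraries had a median of 144% in these 28 genes and 8.14% in the 172. Among all 1215 genes that rose by at least 1 in TPM, 143 (11.8%) lacked such a rise in counts. The calls of each comparison below are given for the whole set and for the 172 genes. This split uses the control NF33 and NF38 libraries that also enter the tests of morphants against controls. Calls over the 172 are thus no independent check there, and the 172 were not chosen anew without a control library.

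**Figure D1:**
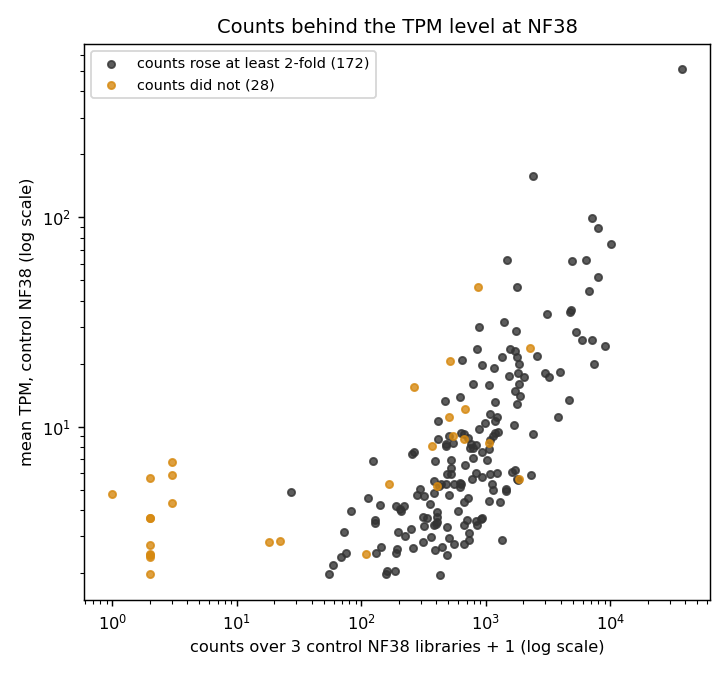
Mean TPM in control NF38 libraries against the counts summed over those 3 libraries, plus 1, both on log axes, with 1 point per late-onset gene. The 172 genes whose counts rose at least 2-fold run along a band where TPM rises with counts, while 12 of the other 28 genes sit at the left edge with 0 to 2 counts and 1.98 to 6.79 TPM.

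In controls most members were under 1 TPM at NF25 (148 of 200) and at NF33 (139), and none was at NF38. These values chose the members and are given as a description. Summed over the 200 genes, expression was 358 ± 9.51 TPM at NF25, 444 ± 11 TPM at NF33 and 2941 ± 38.6 TPM at NF38 (SD, n = 3). The sum rose from 0.0444% to 0.294% of all transcripts between the last 2 stages. The level of the median gene was 0.147 TPM at NF25, 0.498 TPM at NF33 and 5.95 TPM at NF38. At NF38, 77 genes were under 5 TPM, 92 between 5 and 20 TPM and 31 at or above 20 TPM. The 10 most abundant genes held 41.4% of the summed control NF38 TPM. In pooled tissue, a rise in the number of cells of a type and a rise in RNA per cell cannot be told apart.

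The words "only by NF38" hold on the scale of the rule and less well in counts. On that scale 134 genes moved by at most 0.5 between NF25 and NF33, 49 rose by more than 0.5 and 17 fell by more than 0.5; among the 172 these numbers were 110, 48 and 14. Adding 1 TPM before the log compresses changes among faint genes of under 1 TPM. In counts, 85 genes were at least 2-fold higher at NF33 than at NF25 with 10 or more counts, and 16 were at least 2-fold lower; among the 172 these numbers were 81 and 15. Of the 172 genes, 31 had 0 counts in all 3 control NF25 libraries and 2 had 0 counts in all 3 control NF33 libraries. Most of the 172 thus had some counts in controls already at NF25, often at a low level.

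XBXL10_1g662 had the largest rise. It was listed at 0 TPM in all 3 control NF25 libraries, at 0.660, 0.210 and 0.420 TPM at NF33 and at 152, 156 and 165 TPM at NF38. XBXL10_1g15332 had the next largest rise, with 0.280, 0.280 and 0.25 TPM at NF33 and 97.2, 98.7 and 101 TPM at NF38. Every NF38 library of either gene stood far above all control libraries of the earlier stages.

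XBXL10_1g15471 was the most abundant member and was never silent. Its control libraries held 81.5, 83.9 and 80.1 TPM at NF25, 157, 155 and 143 TPM at NF33 and 502, 516 and 514 TPM at NF38. It alone held 17.4% of the summed control NF38 level. Without it the control sums were 276 ± 10.1, 292 ± 3.63 and 2430 ± 33.4 TPM (SD, n = 3). Every member was chosen to rise at the step to NF38, so the rule itself made this sum rise without the gene.

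**Figure D2:**
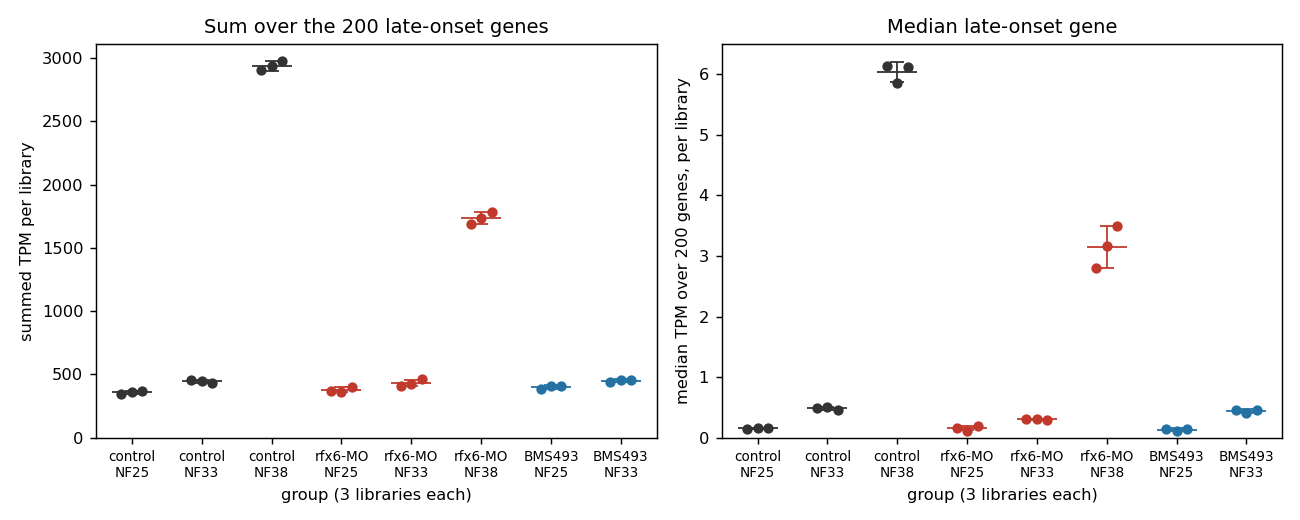
Summed TPM of the 200 late-onset genes (left) and TPM of the median gene (right) in each of 24 libraries, by group; points are libraries, horizontal marks the group mean and bars its SD. Control NF38 libraries sum to 2903 to 2980 TPM and morphant NF38 libraries to 1686 to 1780 TPM, while every library of the earlier stages is at or below 460 TPM.

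At NF25 the rule itself kept out genes that were well above controls in morphants. Differences from controls in log2(TPM + 1) ran from -0.93 to 0.57 in NF25 morphants, with an upper bound set by the rule, and the median difference was 0. Under BMS493 at NF25 the rule set a lower bound only, and differences ran from -0.72 to 2.13. There 7 genes stood more than 0.8 above controls, 3 of them among the 172. The sums over the set at NF25 were 377 ± 19.8 TPM in morphants and 400 ± 13.7 TPM under BMS493, against 358 ± 9.51 TPM in controls (SD, n = 3). Part of these sums comes from genes without a rise in counts: over the 172 they were 322 ± 7.66, 337 ± 5.57 and 306 ± 7.23 TPM.

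At NF33 under BMS493 the set stood at 450 ± 10.7 TPM against 444 ± 11 TPM in controls (SD, n = 3). Over the 172 genes whose counts also rose, the order was reversed, at 393 ± 6.74 TPM against 400 ± 11.5 TPM in controls. Without the abundant XBXL10_1g15471, the sums over the other members were 339 ± 6.68 TPM under BMS493 and 292 ± 3.63 TPM in controls. The direction of the sum under BMS493 at this stage thus depended on which genes entered it. Over the whole set, differences in log2(TPM + 1) ran from -0.75 to 0.80, where the upper bound is the rule's and the lower end is not. Of the 200 genes, 16 were more than 0.5 above controls and 7 more than 0.5 below. XBXL10_1g15471 had lower values, at 107, 115 and 113 TPM against 157, 155 and 143 TPM in controls. The groups did not overlap, but its difference in log2(TPM + 1) was less than 0.5 in size. The rule used both groups, and no share of all genes without overlap was computed under BMS493. XBXL10_1g15332 had higher values, at 0.8, 0.870 and 0.930 TPM against 0.280, 0.280 and 0.25 TPM, which is still far under its control level at NF38.

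At NF33 more members stood below controls than above in morphants, whose NF33 libraries the rule did not use, while it did use the control NF33 libraries. The test was edgeR's quasi-likelihood test over all 28313 genes that passed a filter on low counts, with p-values adjusted over all of them by the Benjamini-Hochberg method and a call at an adjusted p under 0.05. Of the 200 members, 186 passed the filter and 14 were not tested, and 72 would not pass it without the NF38 libraries of both groups. With the filter so applied, 61 were lower and 25 higher among 128 tested (all genes, 25.8% and 25.5%). At NF33, 81 members were called lower in morphants (background 24.3% of all genes tested) and 28 higher (background 25.5%), with 77 not called. Among the 172, the numbers were 77 lower and 24 higher. At least 2-fold lower were 54 (background 5.64%) and at least 2-fold higher 16 (background 6.63%). The balance of the background itself shifted with the method, since limma on log2(TPM + 1) called 7744 genes higher and 4401 lower in place of 7207 and 6873. By that method 56 members were lower and 23 higher.

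The median log2 fold change of the members tested was -0.59 at NF33, against 0.01 over all genes tested. With the 10 genes that had 0 counts in 1 group held at the lower bound that 3 counts per group allow, and the 6 at or under that floor in both groups at no change, it was -0.56. Among the 128 members that pass the filter without the NF38 libraries, the median was -0.42. Levels at this stage were low in both groups, with the median gene at 0.342 TPM in morphants and 0.498 TPM in controls. Summed over the set, morphants held 432 ± 25.5 TPM and controls 444 ± 11 TPM (SD, n = 3). Without XBXL10_1g15471 the order turned, at 322 ± 23.2 TPM in morphants and 292 ± 3.63 TPM in controls. Over the 172 the sums were 363 ± 6.96 TPM in morphants and 400 ± 11.5 TPM in controls. In TPM, which needs no filter, all 3 morphant libraries lay below all 3 control libraries for 70 of the 200 genes (background 13.2% of all 44478 genes) and above them for 30 (background 22.7%), or 68 and 25 of the 172. Only 37947 of these 44478 genes had any count, so this background and the later ones in TPM include genes without counts. The control NF33 libraries took part in choosing the members. With all of them, the median difference in log2(TPM + 1) between morphants and controls was -0.06. When the set was chosen anew without 1 of them and morphants were compared with that library alone, this median lay between -0.10 and -0.06. edgeR, with that library as the lone control of the stage, then gave a median log2 fold change of -0.63 to -0.52 over 185 members tested. A lone library is assumed to vary like those of other groups. The filter of these fits kept both NF38 groups, so some of the 185 passed only through NF38 libraries.

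XBXL10_1g25975 had the lowest fold change at NF33 among members called. Controls held 0.970, 0.940 and 0.6 TPM and morphants 0 counts in all 3 libraries, at least 12.5-fold lower (edgeR adjusted p = 2.86e-08). Under BMS493 at the same stage it was at 0.200, 0.360 and 0.0700 TPM, below every control library, in groups that the rule used. Before NF38 its largest sum was 37 counts over 3 libraries, in NF33 controls. It may thus have passed the filter only through NF38 libraries. XBXL10_1g39129 stood at 0.300, 0.0700 and 0.0700 TPM in controls and 0 counts in morphants, at least 8.09-fold lower (edgeR adjusted p = 1.95e-05). That call was lost with limma on log2(TPM + 1), where the adjusted p was 0.120. No group before NF38 held more than 24 counts of XBXL10_1g39129 over 3 libraries, so it passed the filter only through NF38 libraries.

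XBXL10_1g32411 went the other way and was present early in morphants. At NF33 morphants held 8.46, 9.04 and 8.61 TPM against 0.780, 0.640 and 0.700 TPM in controls, which is 3.53 ± 0.09 as a log2 fold change (SE; adjusted p = 9.10e-47, edgeR). At NF25 it was faint in morphants (0.127 ± 0.0569 TPM) and in controls (0.153 ± 0.0306 TPM; SD, n = 3). XBXL10_1g11932 was also called higher at NF33, at 0.370, 0.6 and 1.48 TPM against 0, 0 and 0.130 TPM (edgeR adjusted p = 0.0011). That rests on 18 counts against 1, a 17.8-fold difference whose 95% interval from counting error alone runs from 2.81 to 741. No group before NF38 held more than these 18 counts, so XBXL10_1g11932 passed the filter only through NF38 libraries.

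At NF38 most of the set was lower in morphants than in controls. The 3 morphant libraries summed to 1686, 1736 and 1780 TPM and the 3 control libraries to 2903, 2938 and 2980 TPM, with no overlap. These control libraries also chose the members for high values there, which widens this gap. No sum was computed against a control library left out of the choice. The median gene was at 3.09 TPM in morphants and 5.95 TPM in controls. Over the 172 genes the sums were 1651 ± 17.4 TPM and 2706 ± 9.86 TPM (SD, n = 3). Without XBXL10_1g15471 the sums of all other members were 1429 ± 52.1 TPM in morphants and 2430 ± 33.4 TPM in controls.

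Gene by gene, edgeR called 114 members lower in NF38 morphants (background 21.7% of all genes tested) and 19 higher (background 25.4%), and 53 were not called. The lower genes were 61.3% of the 186 tested. At least 2-fold lower were 66 (background 1.92%) and at least 2-fold higher 3 (background 9.01%). The balance over all genes turned to 6244 higher and 7605 lower with another reference library for TMM scaling, from 7203 and 6141, and also turned without 1 library in 5 of 6 fits. Among the 172 genes 113 were lower and 14 higher. Only 180 members pass the filter without the control NF38 libraries, and of these 115 were lower and 15 higher (all genes, 27.1% and 22.2%). The count of higher members fell to 12 without control NF38 replicate 3 and to 9 with limma on log2(TPM + 1). The median log2 fold change was -0.70 over the members tested and 0.01 over all genes tested.

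In TPM all 3 morphant libraries lay below all 3 controls for 130 of the 200 genes (background 18.2% of all genes listed) and above them for 14 (background 16.2%), or 127 and 14 of the 172. This background again includes genes without counts, unlike a set chosen for its level at NF38. For 98 genes the morphant mean was under 50% of the control mean, and for 24 it was at or above the control mean. The median of this share was 50.8% over the 200 genes and 54.2% over the 172, and it was not computed over all genes. The control NF38 libraries took part in choosing members with high values there. With the set chosen anew without 1 of these libraries and compared with that library alone, the median difference in log2(TPM + 1) lay between -0.57 and -0.48, in place of -0.77 with all of them. Between 135 and 140 of the 200 genes then had all 3 morphant libraries below the library left out, and 25 to 29 had all 3 above it. The share over all genes was not computed for 3 libraries against 1, so these counts have no background beside them. edgeR with that library as the lone control called 86 to 92 members lower and 12 to 13 higher among 180 to 182 tested (all genes, 15.7% lower and 18% to 18.4% higher), with a median log2 fold change of -0.66 to -0.60.

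**Figure D3:**
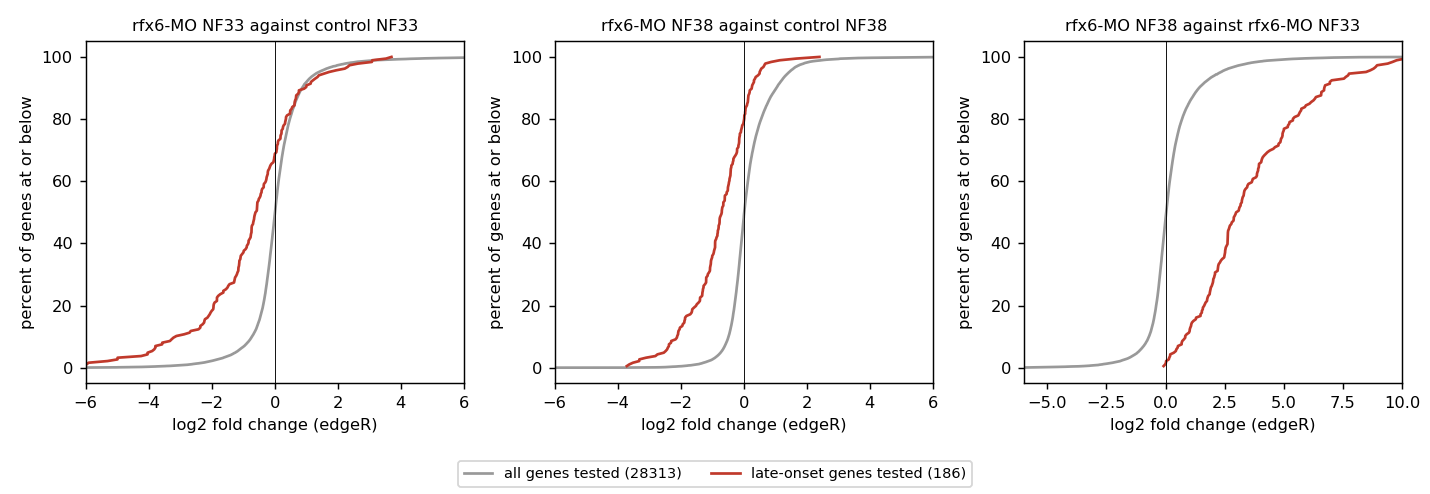
Cumulative percent of genes by edgeR log2 fold change in 3 comparisons, with 186 late-onset genes tested in red and all 28313 genes tested in grey; the horizontal range is cut at the axis limits. The red curve lies left of the grey one at NF38 (median -0.70) and far to the right for the step from NF33 to NF38 in morphants (median 3.04).

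The members with the largest rise in controls were lower at NF38 in morphants. XBXL10_1g662 stood at 63.8, 65.8 and 59.4 TPM against 152, 156 and 165 TPM, which is -1.27 ± 0.11 as a log2 fold change (SE; adjusted p = 2.47e-16, edgeR). XBXL10_1g15332 reached 25.5, 27.3 and 24.9 TPM against 97.2, 98.7 and 101 TPM, which is -1.89 ± 0.08 as a log2 fold change (SE; adjusted p = 2.71e-31, edgeR). These control values also chose the pair. Both kept the largest rises when chosen without any 1 control NF38 library, and against that library alone the log2 fold change was -1.35 to -1.20 for XBXL10_1g662 (highest adjusted p = 1.01e-07, edgeR) and -1.93 to -1.85 for XBXL10_1g15332 (highest adjusted p = 1.79e-18, edgeR). For the abundant XBXL10_1g15471 the morphant libraries held 313, 298 and 304 TPM against 502, 516 and 514 TPM, which is -0.69 ± 0.05 as a log2 fold change (SE, adjusted p = 2.00e-18, edgeR). This gene was named for the same control NF38 values, which also entered the rule, and it was not compared with a held-out library. It was already lower at NF33, at 107, 110 and 112 TPM against 157, 155 and 143 TPM (log2 fold change -0.57 ± 0.05, SE; adjusted p = 4.48e-14, edgeR).

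XBXL10_1g18474 had the lowest fold change at NF38. Controls held 7.08, 9.26 and 7.92 TPM and morphants 0.540, 0.560 and 0.660 TPM, which is -3.71 ± 0.35 as a log2 fold change (SE; adjusted p = 2.47e-13, edgeR). DESeq2 gave a log2 fold change of -3.75 with an adjusted p of 0.145, and over all 15 alternative settings the adjusted p ran from 7.88e-30 to that value. XBXL10_1g1369 followed, with 3.25, 3.45 and 3.85 TPM in controls and 0.320, 0.310 and 0.180 TPM in morphants, which is -3.63 ± 0.34 as a log2 fold change (SE; adjusted p = 6.85e-15, edgeR). Neither was called at NF33, where both groups were near 0. The control NF38 values that chose the members also enter both NF38 tests, and neither gene was compared with a held-out control library. Outside control NF38, no group held more than 37 counts of XBXL10_1g18474 or 34 of XBXL10_1g1369 over 3 libraries. Either gene may thus have passed the filter only through control NF38.

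Few members exceeded the control level. XBXL10_1g11932 reached 25.4, 22.4 and 22.8 TPM in NF38 morphants against 4.93, 3.21 and 5.58 TPM, which is 2.40 ± 0.26 as a log2 fold change (SE; adjusted p = 1.16e-12, edgeR). XBXL10_1g27443 was the next by fold change in counts, at 1.66 (SE 0.27, edgeR adjusted p = 2.10e-07), and it is one of the 28 genes without a rise in counts. Its TPM overlapped between groups, at 4.75, 3.23 and 4.14 in morphants against 0.25, 4.48 and 2.65 in controls, and limma on log2(TPM + 1) did not call it (adjusted p = 0.0965).

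**Figure D4:**
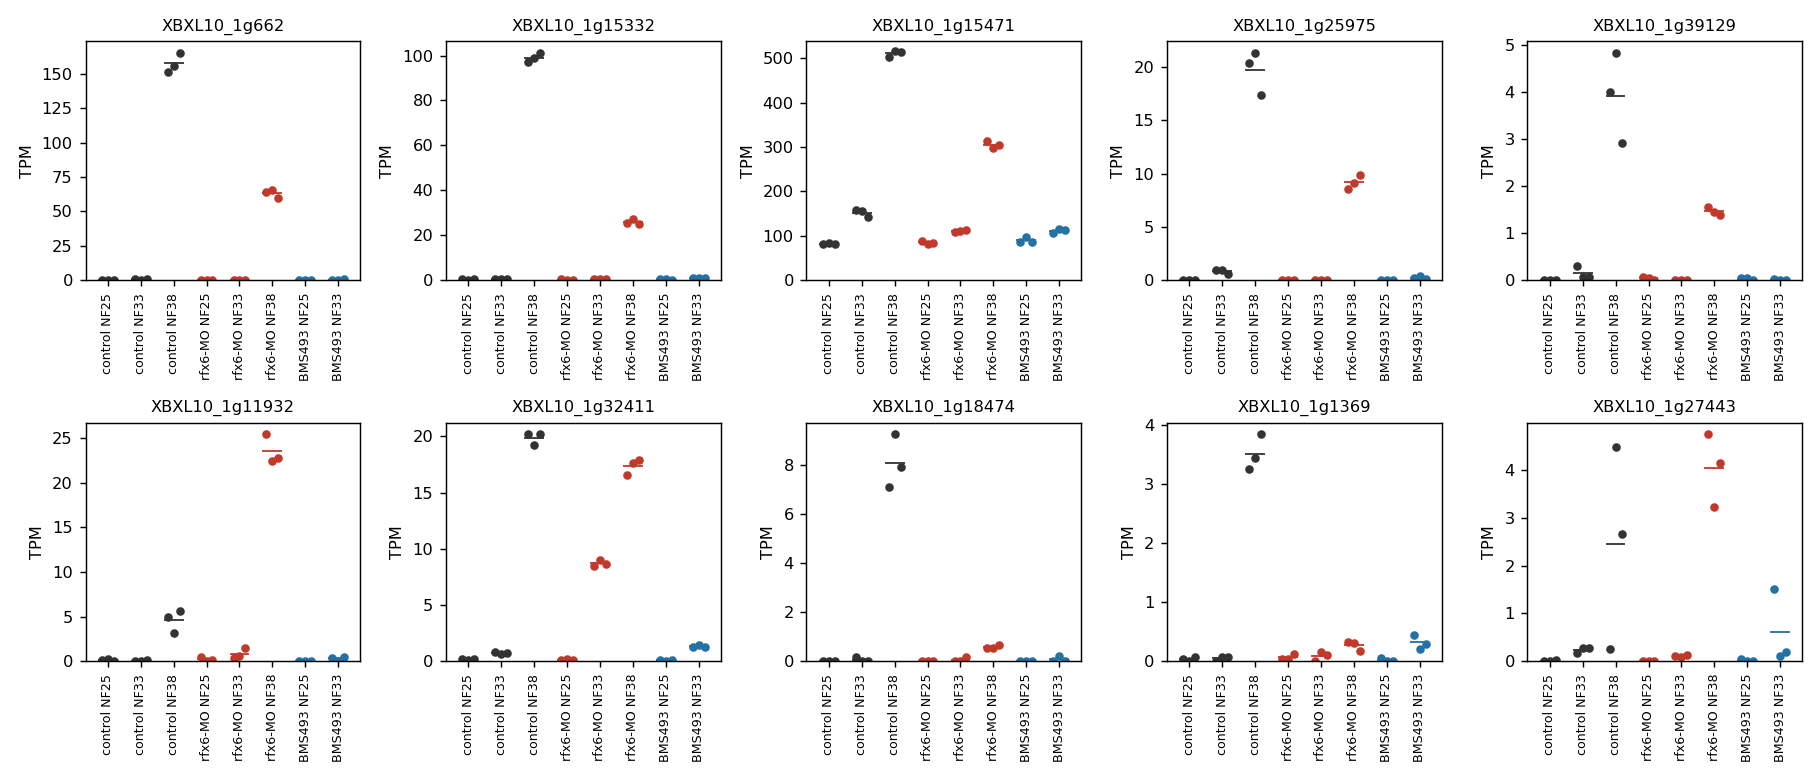
TPM of the 10 genes named in the text in each of 24 libraries, by group, on linear axes that start at 0; points are libraries and horizontal marks are group means. In XBXL10_1g662, XBXL10_1g15332, XBXL10_1g15471, XBXL10_1g25975, XBXL10_1g39129, XBXL10_1g18474 and XBXL10_1g1369 every morphant NF38 library is below every control NF38 library, while XBXL10_1g11932 is above them.

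Although lower than in controls, the set still rose within morphants. The comparison of NF38 with NF33 morphants uses no library that entered the rule, but it crosses batch labels. edgeR called 174 members higher at NF38 (background 32.0% of all genes tested) and 0 lower (background 27.6%), and 164 were at least 2-fold higher (background 13.8%; at least 2-fold lower, 5.42%). No member was lower at an unadjusted p under 0.05 or by DESeq2 either. Among the 172 genes 168 were higher and 3 were not called. Some of the 186 passed the filter only through the NF38 libraries, where members are high; among the 128 that pass without them, 118 were higher and 0 lower (all genes, 31.6% and 27.8%), with a median log2 fold change of 2.54. The balance over all genes, 9072 higher and 7828 lower, turned to 8165 and 9052 with another reference library for TMM scaling, to 8400 and 9029 without the filter, to 6036 and 9946 with limma on log2(TPM + 1), and in each of 6 fits without 1 library. Limma called 161 members higher and 0 lower. The median log2 fold change of members was 3.04, or 2.91 with the 15 genes at 0 counts in 1 group held at their bound. In TPM all 3 NF38 libraries lay above all 3 NF33 libraries for 169 of the 200 genes (background 16.3%), or 165 of the 172.

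XBXL10_1g662 rose from 0 counts in NF33 morphants to 63.8, 65.8 and 59.4 TPM at NF38, at least 316-fold (edgeR adjusted p = 8.68e-36). No group before NF38 held more than 6 counts of this gene over 3 libraries, so it passed the filter only through NF38 libraries. XBXL10_1g25975 rose from 0 counts to 8.55, 9.16 and 9.90 TPM, at least 146-fold (edgeR adjusted p = 1.40e-26). With at most 37 counts in any group before NF38, it may also have passed the filter only through NF38 libraries. In controls XBXL10_1g25975 reached 20.4, 21.4 and 17.4 TPM, so NF38 morphants stayed below every control library (log2 fold change -1.05 ± 0.16, SE; adjusted p = 6.64e-08, edgeR). Those control values also entered the rule, and XBXL10_1g25975 was not compared with a held-out control library.

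Set beside the control rise that chose the genes, the morphant rise in log2(TPM + 1) had a median of 67.1% of it, with quartiles of 33.2% and 90.4%. It was under 50% of the control rise for 75 genes and at or above it for 32. Over the 172 genes the median was 73.4%, with 51 genes under 50% and 31 at or above the full rise. The denominator was used in the choice of members, so these shares are a description and carry no test.

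**Figure D5:**
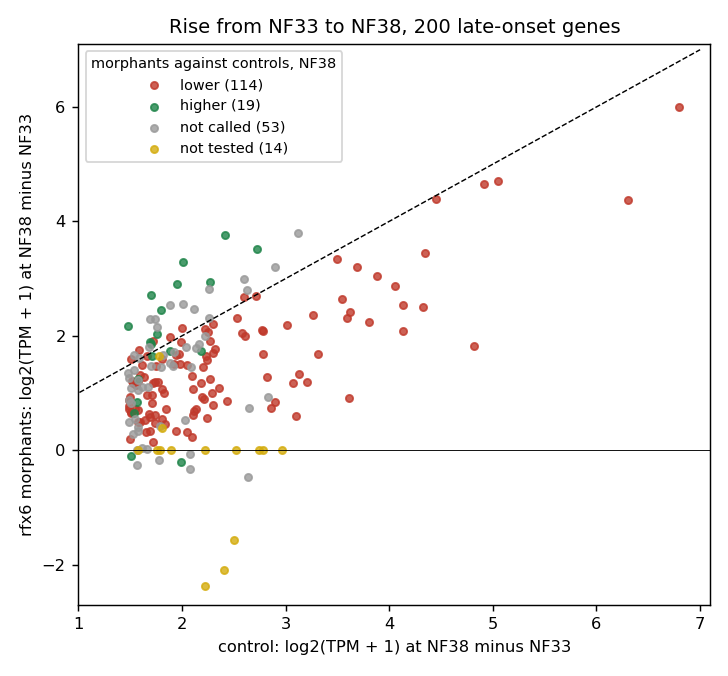
Rise from NF33 to NF38 in log2(TPM + 1), in controls (horizontal) and in rfx6 morphants (vertical), with 1 point per late-onset gene and the dashed line marking equal rises. Colours give the edgeR call for morphants against controls at NF38, and most of the 114 genes called lower lie below the line but above 0.

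Of the 81 members lower at NF33, 55 (67.9%) were also lower at NF38, beside 61.3% of all members tested; they are 48.2% of the 114 lower at NF38. Over all genes tested, 3529 were lower at both stages, 51.3% of the NF33 list and 57.5% of the NF38 list. Of the 28 members higher at NF33, 9 were lower at NF38 and 8 higher. A further 50 members were lower at NF38 with no call at NF33. Unlike for genes lower at both stages, no share over all genes was computed for these last counts. The 2 comparisons share no library, but the controls of both entered the rule, and no test was made of this overlap.

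Other genes that rose late were set beside the members as a description. The 266 genes that met every condition but ranked below the limit had 110 called lower and 39 higher in NF38 morphants among 257 tested, 42.8% and 15.2%. The 749 genes that rose by at least 1 from NF33 to NF38 but failed another condition had 300 lower and 205 higher among 696 tested, 43.1% and 29.5%. Their median log2 fold changes were -0.35 and -0.14. At NF33 morphants were lower in 38.5% of the first group and 51.6% of the second, beside 43.5% of members. The step from NF33 to NF38 in morphants was called higher in 91.4% and 91.1% of them, beside 93.5% of members. Lower levels in NF38 morphants and the rise within morphants were thus not confined to the 200 members, and no test compared these groups of genes. High control NF38 values also chose these other genes, which were not compared with a held-out control library.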

How the data were processed

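RNA sequencing libraries from 24 pools of Xenopus laevis foregut explants were analysed, 3 in each of 8 groups that follow the sample titles. RSEM 1.3.0 and Bowtie2 are listed, per the submitters' processing notes, with no role stated; for build and annotation, the sources used here give nothing. The authors deposited estimated counts per gene, stored as whole numbers (6245 of 1067472 values are 0 beside a TPM above 0), and TPM, which adds up to the same total in every library. A row without a gene identifier held 0% of counts and was left out.

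Members came from the TPM rule. They, the comparisons and the alternatives were chosen with earlier results of these data known. The count test was that of edgeR 4.0.16 under R 4.3.3 (filterByExpr with minimum count 10 and minimum total 15, TMM scaling, glmQLFit with robust estimates over all 24 libraries with 1 mean per group, glmQLFTest); 28313 genes were tested in 3 contrasts. The code was tested on simulated data. limma 3.58.1 and DESeq2 1.42.0 served as alternatives. Bounds against a group at 0 use a floor of 3 counts over the 3 libraries of a group, and cover counting error only. Named were the 2 members with the largest control rise, the 2 with the highest control NF38 level and, per tested comparison, the 2 called members with the largest fold change in each direction. Planned marker lists were not run because the identifiers have no symbols. The split by a rise in counts, the tests on control libraries held out of the choice and the filters without NF38 libraries were added after seeing the data.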

Additional observations from a re-analysis of the deposited data

Results flagged for a closer look

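In 12 members all 3 morphant libraries stood above all 3 controls at NF33 and below all 3 controls at NF38, a pattern held by 2.78% of all 44478 genes. In 7 members the order was the reverse, with morphants below controls at NF33 and above them at NF38, a pattern held by 1.24% of all genes. XBXL10_1g32411 is one of the 12: its log2 fold change in morphants was 3.53 at NF33 and -0.15 at NF38 (edgeR adjusted p = 0.0249 for the latter). The second value is small, at 17.3 ± 0.713 TPM in morphants against 19.9 ± 0.554 TPM in controls (SD, n = 3). The difference between stages was not tested, because it contains the control step from NF33 to NF38 that chose the members.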

How the results depend on the processing

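The choice of members depended on the scale of the rule: 69 of the 200 remained with a pseudocount of 0.1 in place of 1, and 114 remained with TMM-scaled CPM in place of TPM. With a pseudocount of 0.1, 83 of the 200 moved by 1 or more from NF25 to NF33 and 28 failed another condition only. The other 89 still met every condition, but so did 900 genes in all, and the limit of 200 kept 69 of the 89. Leaving out 1 library at a time kept 178 to 199 members. Without the limit of 200, 443 genes were tested: 180 were lower and 82 higher in NF33 morphants, 224 lower and 58 higher in NF38 morphants, and 409 higher and 9 lower at NF38 than at NF33 in morphants. The count of members higher in NF38 morphants was 9 with limma on log2(TPM + 1), 6 with limma on log2(TPM + 0.1) and 12 to 16 without 1 library. Leaving out libraries gave 110 to 118 lower at NF38, 71 to 78 lower and 24 to 27 higher at NF33, and 171 to 172 higher and 0 lower for the step in morphants. Limma on log2(TPM + 0.1) moved the median of all genes for that step to -0.14. Across replicate numbers the deviations of same-numbered libraries did not correlate over 0.1; with a replicate block 115 members were lower and 19 higher at NF38, 80 lower and 28 higher at NF33, and 174 higher for the step. For 14 members counts were too few for a test. Where 1 control library was kept out of the choice and served as the lone control, members were lower by the median. Their median edgeR log2 fold change was -0.66 to -0.60 at NF38 and -0.63 to -0.52 at NF33. The counts of these fits given next cover higher calls only and stand here without the share over all genes. With members chosen without 1 control library and tested against it alone, 12 to 13 were higher at NF38 and 15 to 23 at NF33.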

Other observations

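Counts divided by TPM give a transcript length relative to other genes of the same library. It was taken from libraries with 20 or more counts, for 186 members and 27106 of all genes tested, scaled so that the median over 18769 genes with 20 or more counts in every library is near 1. The median was 0.766 for members (quartiles 0.488 and 1.28) and 0.974 for all genes tested (quartiles 0.586 and 1.57), so the ranges overlap widely.

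Identifiers of 11 members lay within 3 numbers of another member's, in 5 runs. The longest run held 3 genes and included XBXL10_1g18474, the member with the lowest fold change at NF38. In NF38 morphants the 3 stood at 0.970 ± 0.308, 2.77 ± 0.546 and 0.587 ± 0.0643 TPM against 8.27 ± 1.04, 28.6 ± 0.8 and 8.09 ± 1.10 TPM in controls (SD, n = 3). Their log2 fold changes in edgeR were -3.10, -3.32 and -3.71. This run was picked after its values were seen. What the numbers say about position in the genome was not analysed, and near-identical copies may share reads.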
